A study of Rattus norvegicus with 2 samples.

Results

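The miR-99/100, miR-125 and miR-10 families were examined in small RNA libraries of rat hippocampus, 1 library made from rats a day after status epilepticus (SE) and 1 from control rats. Their members were taken as every known rat miRNA of the deposited table whose name carries exactly the number of miR-99, miR-100, miR-125 or miR-10, with any letter or arm. This gave 12 of the 390 miRNAs listed, namely both arms of miR-99a, miR-99b (rno-miR-99b-5p and rno-miR-99b-3p), miR-100 and miR-125a (rno-miR-125a-5p and rno-miR-125a-3p), the shared 5p arm and the locus-specific 3p arms of miR-125b-1 and miR-125b-2, and the 5p arm of miR-10a (rno-miR-10a-5p). The 3p arm of miR-10a and both arms of miR-10b were not analysed here. The experimental group comprised Wistar rats of 5 months in which the lateral nucleus of the right amygdala was stimulated for 20 min to induce SE, and the control group comprised Wistar rats of the same age with sham stimulation per the labels, described in the study's methods as the same surgery and handling with no current applied. Rats of both groups carried an electrode in the right amygdala, and the RNA came from the left hippocampus after perfusion with saline. RNA of several rats was pooled before sequencing, so that each group has 1 library. No difference between the groups thus has a replicate check within the sequencing data. In whole tissue, fewer cells of a type and less RNA per cell cannot be told apart.

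A miRNA is cut from a hairpin as a duplex of a 5p and a 3p strand, of which usually a single strand is kept in abundance as the guide of the silencing complex, and the bases 2 to 8 of that strand, the seed, lead the pairing with target mRNAs. The miR-99/100 and miR-10 families are related by descent, and miR-125 is the mammalian relative of lin-4, which together with let-7 times development in worms. In mammals, genes of miR-99/100, let-7 and miR-125 lie together in clusters, whereas the miR-10 genes lie among the Hox genes. MiR-99 and miR-100 are known as repressors of mTOR, the kinase that couples nutrients to growth, and miR-125b is known in hippocampal neurons for its effects on dendritic spines.

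The sequences of the 5p arms show how closely the paralogs resemble each other, which bears on how reads could be assigned to them. They are RNA sequences from RefSeq (GRCr8), in which 11 of the 12 members were matched by name, with miR-99a-5p as the exception. Capitals mark the seed.
miR-99b-5p: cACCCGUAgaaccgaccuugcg
miR-100-5p: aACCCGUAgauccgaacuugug
miR-10a-5p: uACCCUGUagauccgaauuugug
miR-125a-5p: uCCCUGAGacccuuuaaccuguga
miR-125b-5p: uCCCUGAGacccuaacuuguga

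MiR-99b-5p and miR-100-5p had the same seed and differed at 4 of 22 positions. MiR-99a-5p was not compared for lack of a matched sequence. The hairpin of Mir99a, however, holds a stretch that resembles miR-100-5p more closely than miR-99b-5p does. MiR-125a-5p and miR-125b-5p had the same seed and the same first 13 bases. In the table their seed also occurred in miR-351-5p, which had 19 counts in the experimental and 14 in the control group. MiR-10a-5p had a seed of its own among the listed miRNAs with a matched sequence, but shared a run of 11 bases with miR-100-5p. Per the study's methods short sequences were discarded, and the clean reads were longer than these shared runs of 11 and 13 bases. How the authors' counting divided reads between paralogs was not tested.

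The 3p arms are shown because, among members with at least 30 counts, the larger differences between the libraries were found in them.
miR-99b-3p: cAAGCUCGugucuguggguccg
miR-99a-3p: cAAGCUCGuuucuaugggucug
miR-100-3p: cAAGCUUGugucuauaggu
miR-125a-3p: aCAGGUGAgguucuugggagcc
miR-125b-1-3p: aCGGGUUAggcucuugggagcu
miR-125b-2-3p: aCAAGUCAggcucuugggaccu

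MiR-99b-3p and miR-99a-3p had the same seed and differed at 3 of 22 positions, outside it. The seeds of miR-125a-3p, miR-125b-1-3p and miR-125b-2-3p differed from one another and were found in no other listed miRNA with a matched sequence.

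In the GRCr8 assembly, Mir99b (chr1:67350064-67350133, plus strand), Mirlet7e (chr1:67350229-67350321) and Mir125a (chr1:67350675-67350759) lie within 696 bp of each other and inside the span of the gene Spaca6. Mir99a (chr11:29687392-29687472) lies beside Mirlet7c1, both within 814 bp, and the arms of miR-125b-2 come from the same chromosome (miR-125b-2-3p at chr11:29732627-29732648). Mir100 (chr8:50798295-50798374), Mirlet7a-2 and Mir125b1 (chr8:50850036-50850122) are spread over 51828 bp within the span of Mir100hgl. Mir10a (chr10:81779709-81779818) has Hoxb4 and Hoxb3 within 10 kb. Both strands that were compared for miR-99b are shown in capitals in its hairpin of 70 bases, from which the 5p arm is cut on the left and the 3p arm on the right.
Mir99b hairpin: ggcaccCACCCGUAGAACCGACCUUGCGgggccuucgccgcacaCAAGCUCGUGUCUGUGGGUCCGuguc

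Over all 390 miRNAs the deposited counts came to 5678090 for the experimental and 6703056 for the control group. Levels are expressed per 1000000 clean reads of a library (CPM), with the clean reads as the study states them, and a count of 1 was worth 0.138 CPM in the experimental and 0.114 CPM in the control group. The intervals given are 95% exact (Clopper-Pearson) ones, which account for counting error and for nothing else. As a check of the tissue, the neuronal and brain miRNAs miR-124-3p and miR-128-3p were at 6957 and 29610 CPM in the experimental and at 3262 and 40551 CPM in the control group. Of the lists of markers, the 4 of 6 neuron and brain miRNAs found in the table summed to 37608 and 44561 CPM (experimental and control group). Of these, 3 were higher in the experimental group, and miR-128-3p was lower. The 3 oligodendrocyte miRNAs, miR-219-5p, miR-219-2-3p and miR-338-3p, summed to 1563 and 1588 CPM. Of these, miR-219-5p was lower in the experimental group (222 and 310 CPM) and the other 2 were slightly higher. No miRNA specific to astrocytes was listed. In the order of experimental and control group, 2 of 4 of leukocytes summed to 35.9 and 37.8 CPM, with 1 of them higher in the experimental group. Those of endothelium and smooth muscle, 2 of 4, summed to 188 and 165 CPM. Of the erythrocyte miRNAs, 3 of 4 were found and summed to 30.9 CPM in the experimental and 13.6 CPM in the control group, the liver miRNA miR-122-5p stood at 16.8 and 10.6 CPM, and the 3 muscle miRNAs summed to 246 and 266 CPM. Among the muscle miRNAs, 1 was higher in the experimental group. The part of these cell types in the differences described below was not tested.

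The families were moderately expressed, and their 5p arms made up nearly all of their reads. All 12 members together had 20261 counts in the experimental and 28863 in the control group, which is 0.357% and 0.431% of all counts of the table. The 6 members of the 5p arm took 19999 and 28410 of these counts, and the 6 of the 3p arm 262 and 453.

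MiR-125b-5p was the most abundant member, with 8966 counts in the experimental and 13605 in the control group (1238 and 1557 CPM), followed by miR-125a-5p with 5375 and 7990 counts (742 and 915 CPM). They ranked 25th and 37th among the 328 known miRNAs in the experimental group and 18th and 25th in the control group. MiR-99a-5p had 2711 and 3811 counts (374 and 436 CPM) and miR-99b-5p had 2528 and 2517 counts (349 and 288 CPM). In the experimental group the intervals of miR-99a-5p (360 to 389 CPM) and miR-99b-5p (336 to 363 CPM) overlapped, whereas in the control group they did not (422 to 450 and 277 to 300 CPM). MiR-100-5p was less abundant, with 401 and 480 counts (55.4 and 54.9 CPM). MiR-10a-5p was the least abundant 5p arm, with 18 and 7 counts (2.49 and 0.801 CPM).

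The 3p arms lay between 3 and 177 counts. In the control group miR-99b-3p was the most abundant of them (177 counts, 20.3 CPM), ahead of miR-125b-2-3p (108 counts, 12.4 CPM) and miR-125a-3p (92 counts, 10.5 CPM). In the experimental group miR-125b-2-3p was the most abundant (83 counts, 11.5 CPM), followed by miR-99a-3p (68 counts, 9.39 CPM) and miR-99b-3p (49 counts, 6.77 CPM), whose intervals overlapped their neighbours in that order. MiR-100-3p had 3 counts in the experimental and 11 in the control group.

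**Figure D1:**
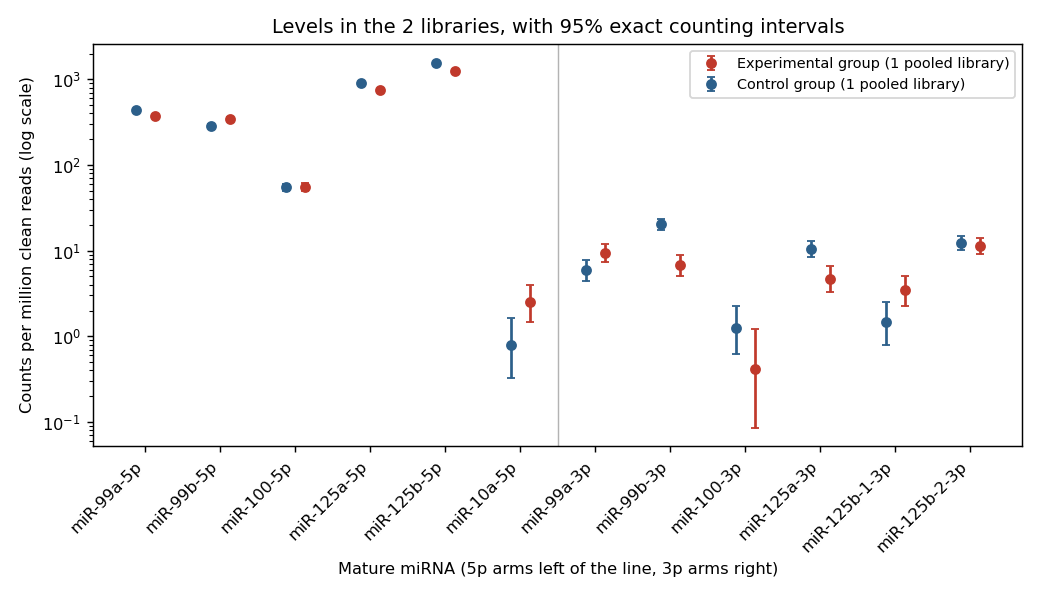
Level of each member in counts per 1000000 clean reads on a log axis, with points for the experimental (red) and control (blue) library and bars for the 95% exact counting interval. The 5p arms, miR-10a-5p excepted, lie between 54.9 and 1557 CPM, the 3p arms at or below 20.3 CPM, and miR-99b-3p and miR-125a-3p are the 3p arms with intervals apart and the control library above.

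The question of the comparison was which members differed in level after SE. The thresholds of the study's screen were used, namely a log2 ratio larger than 2 in size, p under 0.01 and 30 or more counts in at least 1 library (the study also left out miRNAs with a p of 0, which was not done here). Its text does not say how copies were scaled or which test gave p, so that the counts of calls given here belong to the scaling and test used here and need not be those of the study's own screen. The p came from a two-sided Fisher's exact test of the count against the remaining clean reads, which compares these libraries and not the conditions. Of the 12 members, 9 reached 30 counts, the others being miR-10a-5p, miR-100-3p and miR-125b-1-3p, and 0 passed these thresholds, miR-99b-3p with a log2 ratio of -1.58, or -1.85 with unscaled copies, included. Over all miRNAs 4.21% of the 285 miRNAs with at least 30 counts passed. With a log2 ratio beyond 1 in place of 2, miR-99b-3p and miR-125a-3p passed as lower in the experimental group, where 2.11% of the 285 did, and 0 members passed as higher, where 10.2% did.

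MiR-99b-3p had 49 counts in the experimental and 177 in the control group. Its level was 2.99-fold lower in the experimental group (log2 ratio -1.58, interval from -2.07 to -1.12). Fisher's exact test gave p = 1.83e-13 (Benjamini-Hochberg adjusted over 390 miRNAs 1.08e-12). MiR-125a-3p, cut from a gene in the same cluster, had 34 and 92 counts. It was 2.24-fold lower (log2 ratio -1.17, interval from -1.78 to -0.58), with p = 3.18e-05 by Fisher's exact test and an adjusted p of 1.00e-04. All 3p arms of this cluster, with the 7 and 12 counts of let-7e-3p, had 90 counts in the experimental and 281 in the control group (log2 ratio -1.37, interval from -1.73 to -1.02). The 5p arms of miR-99b and miR-125a together had 7903 and 10507 counts and thus a log2 ratio of -0.14.

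The abundant 5p arms differed far less. MiR-125b-5p and miR-125a-5p were lower in the experimental group, with log2 ratios of -0.33 (interval -0.37 to -0.29) and -0.30 (interval -0.35 to -0.25; two-sided Fisher's exact test, p = 1.20e-64 and 1.17e-32). MiR-99a-5p was also lower (log2 ratio -0.22, interval from -0.29 to -0.15), with p = 1.07e-09 by Fisher's exact test. For these 3 the clean reads gave the value nearest to 0 of all 5 scalings, -0.22 for miR-99a-5p and -0.30 for miR-125a-5p. The other 4 scalings shift every log2 ratio downward and could not have brought these above 0. MiR-99b-5p had nearly equal counts in the libraries of unequal depth, and its log2 ratio of 0.28 (interval 0.20 to 0.36) shrank to 0.097 with edgeR's TMM scaling and to 0.0063 with unscaled copies. It thus stayed above 0 under all 5 scalings, but with a Fisher's exact p of 0.0166 with TMM and 0.888 with unscaled copies. For miR-100-5p the log2 ratio was 0.011 (interval -0.18 to 0.21), and it turned negative under each of the other 4 scalings.

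The intervals of 5 of the 9 members with at least 30 counts lay below 0, against 22.8% of the 285 miRNAs, and those of 2 (miR-99b-5p and miR-99a-3p) lay above 0, against 40.4%. The median log2 ratio of the 9 was -0.22, that of the 285 was 0.10. This median of the whole table was -0.08 with TMM and -0.17 with unscaled copies, and the scalings shift every log2 ratio alike. Relative to the median of the table, whatever the scaling, miR-125a-5p and miR-125b-5p stood at -0.40 and -0.43, miR-99a-5p at -0.32, miR-100-5p at -0.090 and miR-99b-5p at 0.18. On the same relative scale miR-99b-3p stood at -1.68 and miR-125a-3p at -1.27.

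The remaining members were few in counts. MiR-99a-3p had 68 counts in the experimental and 52 in the control group, and its log2 ratio of 0.66 had an interval from 0.12 to 1.21 (p = 0.0133 by Fisher's exact test, adjusted 0.0264), so that it did not pass. For miR-125b-1-3p, with 25 and 13 counts, the log2 ratio was 1.21 with an interval from 0.19 to 2.30 (p = 0.0138 by Fisher's exact test, adjusted 0.0273). For miR-125b-2-3p, with 83 and 108 counts, the log2 ratio of -0.11 (interval -0.54 to 0.32) left no difference detectable at this depth. The same held for miR-100-3p, where 3 and 11 counts gave a log2 ratio of -1.60 with an interval from -4.08 to 0.32. MiR-10a-5p, from the Hoxb region, stood at 18 and 7 counts, which is a log2 ratio of 1.63 with an interval from 0.31 to 3.14 (p = 0.00849 by Fisher's exact test, adjusted 0.0172), and under each other scaling its p was above 0.01.

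Variation between animals or between pools does not enter these tests. When a coefficient of variation of 0.2 between pools of a group was assumed in edgeR's exact test, miR-99b-3p alone among the 12 members had p under 0.01 (p = 0.00090), against 13.6% of all 390 miRNAs. With 0.4 its p was 0.0765 and 0 members were left, against 6.41% of the 390.

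**Figure D2:**
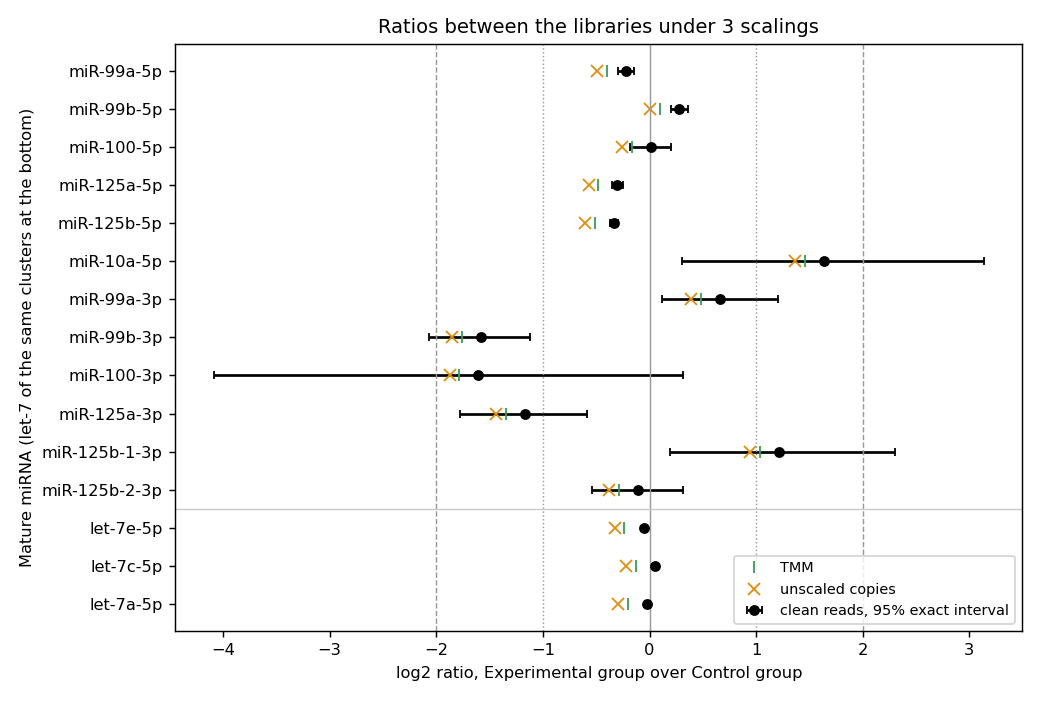
Log2 ratio of the experimental over the control library for the 12 members and the 5p arms of let-7e, let-7c and let-7a, with black points and 95% exact intervals for scaling by clean reads, green ticks for TMM and orange crosses for unscaled copies, and dotted and dashed lines at 1 and 2 in either direction. The interval of miR-99b-3p runs from -2.07 to -1.12 and that of miR-125a-3p from -1.78 to -0.58, whereas with clean reads the 5p arms of miR-99/100, miR-125 and let-7 lie between -0.33 and 0.28.

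The next comparison was between the arms of each hairpin. The odds of a 3p against a 5p read were compared between the libraries by Fisher's exact test, which does not depend on the scaling of the libraries. A total of 112 precursors of the table had both arms and at least 30 counts over both arms and libraries, and 6 of them belonged to the families. Adjusted p (Benjamini-Hochberg over the 112) was under 0.01 for 4 of these 6, against 29.5% of the 112. MiR-125b-5p is made by both miR-125b loci and therefore enters the comparisons of miR-125b-1 and miR-125b-2 alike.

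In miR-99b the 3p arm made up 6.57% of the reads of both arms in the control group (interval 5.66 to 7.57) and 1.90% in the experimental group (interval 1.41 to 2.51). There were thus 14.2 reads of the 5p arm for each read of the 3p arm in the control group and 51.6 in the experimental group. The log2 odds ratio was -1.86 (interval -2.35 to -1.39; two-sided Fisher's exact test, p = 9.58e-18, adjusted 2.15e-16). By size it ranked 7th among the 112 precursors, and the median of the 112 was -0.22. The largest differences were found in miR-345 (3.32), miR-542 (interval from -5.53 to -0.80) and miR-361 (2.76), of which miR-542 and miR-361 rest on few reads and had adjusted p of 0.0131 and 0.0173.

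In miR-125a the 3p share was 1.14% in the control group (interval 0.919 to 1.39) and 0.629% in the experimental group (interval 0.436 to 0.877), a log2 odds ratio of -0.86 (interval -1.48 to -0.28; two-sided Fisher's exact test, adjusted p = 0.00866). MiR-99b and miR-125a were the loci with a lower 3p share and an adjusted p under 0.01, 2 of 6, against 18.8% of the 112 precursors. Let-7e, whose gene lies between those of miR-99b and miR-125a, had 7 and 12 counts of its 3p arm, too few to show a difference of its arms (interval of the log2 odds ratio -2.04 to 1.01).

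In miR-99a the difference ran the other way. Its 3p share was 1.35% in the control group (interval 1.01 to 1.76) and 2.45% in the experimental group (interval 1.91 to 3.09), a log2 odds ratio of 0.88 (interval 0.33 to 1.43; two-sided Fisher's exact test, adjusted p = 0.00483). In miR-125b-1 the 3p arm had 0.0955% of the reads in the control group (13 reads) and 0.278% in the experimental group (25 reads). This was a log2 odds ratio of 1.54 from few 3p reads (interval 0.52 to 2.64; two-sided Fisher's exact test, adjusted p = 0.00585). For miR-125b-2, with 0.788% and 0.917%, and for miR-100, with 2.24% and 0.743% from 11 and 3 reads of the 3p arm, the intervals of the log2 odds ratio included 0 (-0.21 to 0.65 and -4.10 to 0.32).

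**Figure D3:**
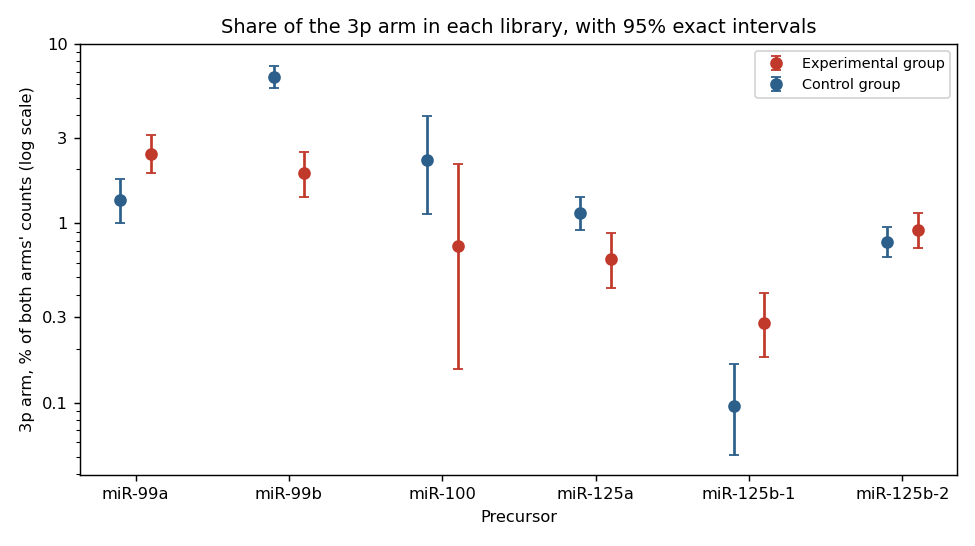
Share of the 3p arm among the reads of both arms of 6 precursors, in percent on a log axis, in the experimental (red) and control (blue) library with 95% exact intervals. The share of miR-99b is 6.57% in the control and 1.90% in the experimental library, and the shares of miR-99a and miR-125b-1 are higher in the experimental library.

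**Figure D4:**
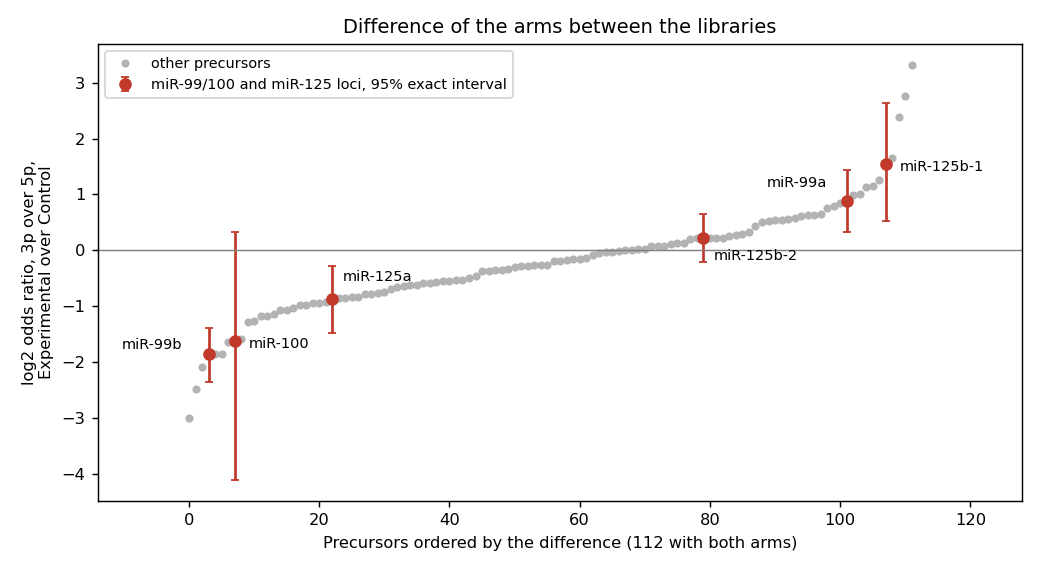
Log2 odds ratio of 3p over 5p reads, experimental over control library, for 112 precursors in ascending order, with the 6 loci of the families in red with 95% exact intervals. MiR-99b, at -1.86, lies near the lower end, and miR-125b-1, at 1.54, near the upper end.

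Paralogs were then compared with each other on the same arm, in 10 pairs with Benjamini-Hochberg adjustment over the 10, and 4 had an adjusted p under 0.01. These Fisher's exact tests account for counting error alone. Unrelated pairs were not compared, so that this count has no background and shows nothing particular to paralogs. Among the 5p arms, miR-99b-5p shifted against miR-99a-5p. There were 0.660 reads of miR-99b-5p for each read of miR-99a-5p in the control group and 0.932 in the experimental group, a log2 odds ratio of 0.50 (interval 0.39 to 0.61; two-sided Fisher's exact test, adjusted p = 6.25e-19). Within the reads of the 3 miR-99/100 5p arms, the share of miR-99b-5p was 37.0% in the control and 44.8% in the experimental group, that of miR-99a-5p 56.0% and 48.1%, and that of miR-100-5p 7.05% and 7.11%. Their sum was nearly the same in both libraries, at 779.2 CPM in the control and 778.8 CPM in the experimental group. Its log2 ratio was -0.00072, with an interval from -0.052 to 0.050, and reached -0.27 with unscaled copies.

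MiR-125a-5p and miR-125b-5p, which share their seed, were not seen to shift against each other. MiR-125a-5p made up 37.0% of the reads of both in the control group and 37.5% in the experimental group, and the interval of the log2 odds ratio of 0.030 reached from -0.034 to 0.093 (Fisher's exact test, adjusted p = 0.401). The sum of both was 2472 CPM in the control and 1980 CPM in the experimental group (log2 ratio -0.32, interval from -0.35 to -0.29, and -0.59 with unscaled copies).

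The 3p arms of the paralogs diverged more widely. MiR-99b-3p and miR-99a-3p share their seed, and the reads of miR-99b-3p for each read of miR-99a-3p numbered 3.40 in the control group and 0.721 in the experimental group. The log2 odds ratio was -2.23 (interval -2.97 to -1.51; two-sided Fisher's exact test, adjusted p = 5.98e-10). Reads with this seed in the pair summed to 229 in the control and 117 in the experimental group (log2 ratio -0.70, interval from -1.03 to -0.37). MiR-125a-3p likewise differed from miR-125b-1-3p, with a log2 odds ratio of -2.36 (interval -3.62 to -1.17; two-sided Fisher's exact test, adjusted p = 1.04e-04), and from miR-125b-2-3p, with one of -1.05 (interval -1.81 to -0.32; two-sided Fisher's exact test, adjusted p = 0.00755). The pairs with miR-100-3p rested on 3 reads in the experimental group. For miR-10a-5p no paralog was analysed here.

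The members were finally set beside the miRNAs cut from the same clusters. Let-7e-5p had 165845 counts in the experimental and 207967 in the control group, and its log2 ratio was -0.06. Its sequence is close to that of the more abundant let-7a-5p, and how reads were divided between them was not tested. Against let-7e-5p, miR-99b-5p was relatively higher in the experimental group (log2 odds ratio 0.33, interval 0.25 to 0.41) and miR-125a-5p relatively lower (-0.25, interval -0.30 to -0.19). Against each other, miR-99b-5p and miR-125a-5p differed by 0.58 (interval 0.48 to 0.67; two-sided Fisher's exact test, adjusted p = 5.74e-33 over the 9 pairs compared), which is a ratio of 0.315 in the control and 0.470 in the experimental group. The miRNAs of this cluster, whose genes span 696 bp, thus had different ratios between the libraries on their 5p arms, with counting error alone considered. Unrelated pairs were not compared, and whether such differences exceed the variation between pools was not tested for the pairs.

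In the cluster on chromosome 11, miR-99a-5p was relatively lower than let-7c-5p (log2 odds ratio -0.27, interval -0.34 to -0.20), and so was miR-125b-5p (-0.38, interval -0.42 to -0.34). MiR-99a-5p and miR-125b-5p differed little from each other, by 0.11 (interval 0.029 to 0.19; two-sided Fisher's exact test, adjusted p = 0.00860). In the cluster on chromosome 8, miR-100-5p did not differ detectably from let-7a-5p (0.037, interval -0.16 to 0.23), whereas it was relatively higher than miR-125b-5p (0.34, interval 0.14 to 0.54; two-sided Fisher's exact test, adjusted p = 8.54e-04), and miR-125b-5p was relatively lower than let-7a-5p (-0.31, interval -0.34 to -0.27). Let-7c-5p, let-7a-5p and miR-125b-5p each come from more than 1 locus, so that their reads cannot be assigned to a cluster. Let-7a-1-3p and let-7c-2-3p, with 10 and 8 counts each, come from loci outside these clusters.

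**Figure D5:**
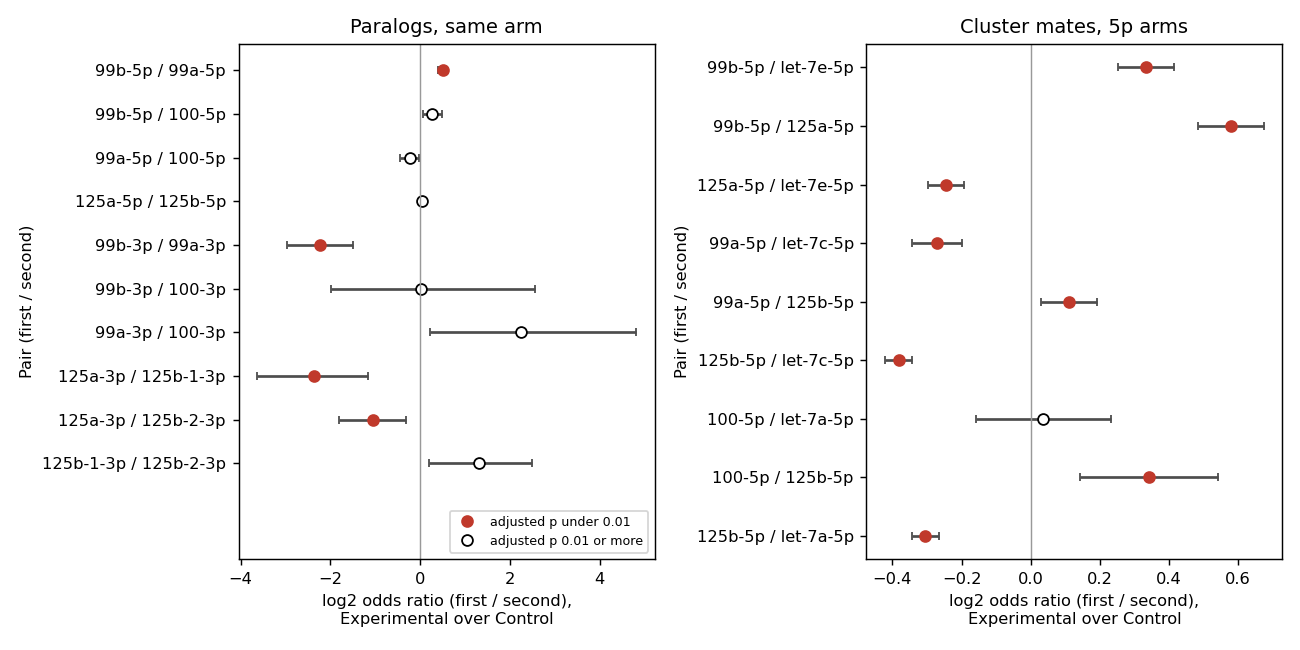
Log2 odds ratios between paralogs on the same arm (left, 10 pairs) and between 5p arms cut from the same cluster (right, 9 pairs), experimental over control library, with 95% exact intervals, filled red where the adjusted p is under 0.01 and open otherwise. The pairs of miR-99b-3p with miR-99a-3p and of miR-125a-3p with miR-125b-1-3p lie beyond -2, and that of miR-125a-5p with miR-125b-5p lies at 0.030.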

How the data were processed

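Small RNA from pooled hippocampal RNA was sequenced, 1 library per group. What the authors deposited is a count of reads for each miRNA, in whole numbers and unscaled. The labels mention cRNA preparation for arrays, whereas the study's methods describe the sequencing, which was followed here. Per these methods, low-quality, short and single-read sequences were discarded. The submitters' processing notes name the genome build rn5, and the aligner and the miRBase release are not given in the sources used here. The table also holds the authors' p-values, which were not used.

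Counts were divided by the clean reads that the study states. Counts under 3 were to be set to 3, which applied to 0 members. Two-sided Fisher's exact tests, exact intervals and Benjamini-Hochberg adjustment over the whole table, or over the pairs compared, were used, and no model with replicates could be fitted. An arm named for a numbered locus was paired with the unnumbered other arm. The alternatives were other scalings (table sums, unscaled copies, DESeq2's size factors, edgeR's TMM), a pseudocount of 1, minimums of 0, 10 or 100 counts, a log2 ratio beyond 1, adjusted p, 0.5 added to each cell, and edgeR's exact test with assumed coefficients of variation. Every member was named, with the let-7 of the same clusters and the 3 precursors with the largest difference of the arms. The members and lists were chosen with earlier results of these data known. Data of 390 miRNAs were simulated with counting error alone, and a seeded set had a log2 change of 3, above the threshold of 2. The screen called 176 of 177 changed miRNAs with at least 30 counts and 0 of 133 unchanged ones. Variation between pools was not simulated, so that this gives no rate of false calls for the libraries themselves. Software was Python 3.11.15, scipy 1.17.1, R 4.3.3, edgeR 4.0.16 and DESeq2 1.42.0.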

Additional observations from a re-analysis of the deposited data

How the results depend on the processing

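No paired analysis was possible because the experimental and the control group each consist of 1 pool, and leaving out a replicate could not be done either. The number of members passing the screen's thresholds, 0, rose to 2 with a log2 ratio beyond 1, by its construction. It was also 0 with no minimum, a minimum of 10 counts and the other scalings. No member had a log2 ratio beyond 2 in size under any scaling. Lower minimums and the remaining alternatives therefore could not have raised the number. The number of members with an interval above 0 went from 2 to 1 with TMM and to 0 with unscaled copies, while 5 lay below 0 under TMM, DESeq2's size factors and table sums and 6 with unscaled copies. These scalings shift every log2 ratio downward, so that the number below 0 could not have fallen. The share over all miRNAs was not computed under them, so that these counts show nothing particular to the members. The log2 ratio of miR-100-5p turned to -0.17 with TMM, -0.079 with DESeq2's size factors, -0.020 with table sums and -0.26 with unscaled copies. With 0.5 counts added to each cell, the log2 odds ratio of miR-99b-3p against miR-100-3p turned from 0.021 to -0.13. No difference of arms or cluster mates changed sign with this addition, which gives a value without a p. Assumed coefficients of variation, which stand for variation between pools, were applied to single members after the data were seen. Depth limits miR-100-3p, miR-10a-5p and miR-125b-1-3p, which had 25 counts or fewer in each library.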
